A study of Saccharomyces cerevisiae with 6 samples.

Results

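The RNAs described here carry the mRNA leaders of the large ribosomal subunit proteins RPL1 to RPL19 of budding yeast (Saccharomyces cerevisiae). A leader is the part of an mRNA that precedes the start codon. Members were chosen by name: every RNA of the pool whose locus tag is one of 35 listed genes, RPL1A to RPL19B, such as YBR031W (RPL4A), YIL018W (RPL2B), YLR029C (RPL15A) and YBR084C-A (RPL19A). There were 43 such RNAs from 34 genes, out of 6962 RNAs from 4134 genes. RPL1A had no RNA in the table and is not analysed here. For 25 genes there was 1 RNA, and for 9 genes there were 2 that differ in leader length. The RNAs were transcribed by T7 RNA polymerase from a synthetic pool, capped, and incubated in a translation extract of S. cerevisiae, per the labels' protocols. A sucrose gradient then gave 3 libraries of the 80S fraction, in which a ribosome with both subunits joined is bound to the RNA, and 2 libraries of RNA labelled as untranslated. Both fractions were extracted with phenol and chloroform and pulled down through biotin. The input RNA, 1 library, is the starting pool, and its label names the extraction without the biotin pulldown, so that comparisons with the input may also hold the pulldown. These are synthetic RNAs in a cell-free extract, not mRNAs taken from cells.

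The large subunit of the ribosome holds the peptidyl transferase centre, where amino acids are joined, and the tunnel through which the new protein leaves. Most of its proteins are encoded in yeast by a pair of genes, called A and B, that arose from a duplication of the genome and make nearly the same protein. In growing cells the mRNAs of ribosomal proteins are among the most abundant and are translated efficiently, and their leaders are mostly short. The measurements here ask how RNAs with these leaders were shared between ribosome-bound and unbound RNA outside the cell.

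Leader sequences were read from the R64 reference genome (RefSeq) as the stretch directly upstream of the annotated start codon, with the number that ends the name of each RNA read as the leader length in nt. No source used here states that reading, and every leader length, sequence and position -3 given here rests on it. All 43 members received a sequence. Leader length ran from 14 to 64 nt, and its median was 23 nt, against a median of 45 nt over the 6855 leaders of the pool with a sequence. At most 30 nt were found in 30 of the 43 (69.8%), against 27.5% of the pool. None held an upstream ATG, compared with 14.2% of all leaders and 8.46% of the 3037 other leaders of at most 41 nt, the length of the second longest member. The median share of A was 54.2% in the members, 40.0% in the pool and 42.9% in those other leaders of at most 41 nt. A minimum folding energy of 0 kcal/mol, which means no predicted structure in the leader alone, was found in 34 of 43 members (79.1%), in 22.7% of the pool and in 47.2% of the other leaders of at most 41 nt. The leader with the strongest predicted fold was that of RPL1B, at -6.1 kcal/mol.

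The leaders of the RNAs that lay furthest to each side are shown first, those of at most 30 nt only. That limit leaves out RPL4B (32 nt) and RPL15B (35 nt), at log2 differences of 80S minus untranslated of -2.82 and -1.90. Sequences are DNA letters in the sense of the RNA, 5′ to 3′, from RefSeq R64, and end at the base before the start codon. The capital marks position -3, counted from the start codon, where an A is the usual base in yeast. Among leaders of at most 30 nt, the first 5 are those with the largest excess in 80S, and the last 5 those with the largest excess in untranslated RNA.
RPL13A (29 nt): atagtacagcacagcaggaatcgtacAca
RPL2B (24 nt): aagaaaccacaaagttattgaAca
RPL17B (21 nt): aacgaaacgaacaaatttAaa
RPL2A (24 nt): aagaaaccattagatcaataaGca
RPL14A (19 nt): gtgaaaaataaaataaAca
RPL4A (16 nt): aagaacaatcatcGaa
RPL19A (22 nt): gattaagaactccaaagcaAaa
RPL4B (14 nt): atataccaataAta
RPL5 (19 nt): gtcacaaatctcagcaAca
RPL8A (20 nt): atcaaaacaactaattcGaa
In R64 the RPL4A leader lies at chrII:300150-300165 and the RPL2B leader at chrIX:316744-316767, both on the plus strand.

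An A at position -3 was present in 34 of 43 members (79.1%), against 62.5% of the pool. It was present in 6 of the 8 RNAs that were higher in 80S and in 10 of the 14 that were lower, by the test given next. The first base was G in 1 of those 8 and in 6 of those 14, and A in the others. The median share of A was 57.2% in the 8 and 48.2% in the 14. Length was alike, with medians of 23.5 nt and 22.5 nt. Across the 43 members the log2 difference between 80S and untranslated RNA had a Pearson's r of 0.31 with the share of A, of 0.07 with length and of 0.06 with folding energy, as a description over RNAs that share the same libraries. Over the 6855 leaders of the pool the same r was 0.19, -0.05 and 0.03. With the share of G and C, r was -0.13 in the members and -0.26 in the pool.

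The comparison of 80S with untranslated RNA asks which leaders lay with a ribosome. The RPL1 to RPL19 RNAs were split, and of those that passed the test more lay on the untranslated side. Abundance is given as FPKM, fragments scaled to RNA length and to the mapped fragments of a library, and differences are on the log2(FPKM + 1) scale with a standard error (SE). In limma, fitted to all 6962 RNAs with Benjamini-Hochberg adjustment, 8 of 43 members were higher in 80S at an adjusted p under 0.05, 14 were lower and 21 did not pass. Over the pool, 38.6% of RNAs were higher and 31.8% lower, 70.4% in all. The members' 18.6% higher lies below that background, and their 32.6% lower is near it. At 2-fold or more, 5 members were higher and 9 lower, a size at which the pool was not counted. The lower and upper quartiles of the log2 difference were -0.87 and 0.52 in the members and -0.94 and 1.08 in the pool. All 3 80S libraries lay above both untranslated libraries in 13 members and below both in 16, against 43.6% and 35.9% of the pool. The median member stood at 0.01 and the median of all RNAs at 0.18. Rescaling each library by median ratios moved both, to -0.13 and 0.03, so differences near 0 depend on the scaling.

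**Figure D1:**
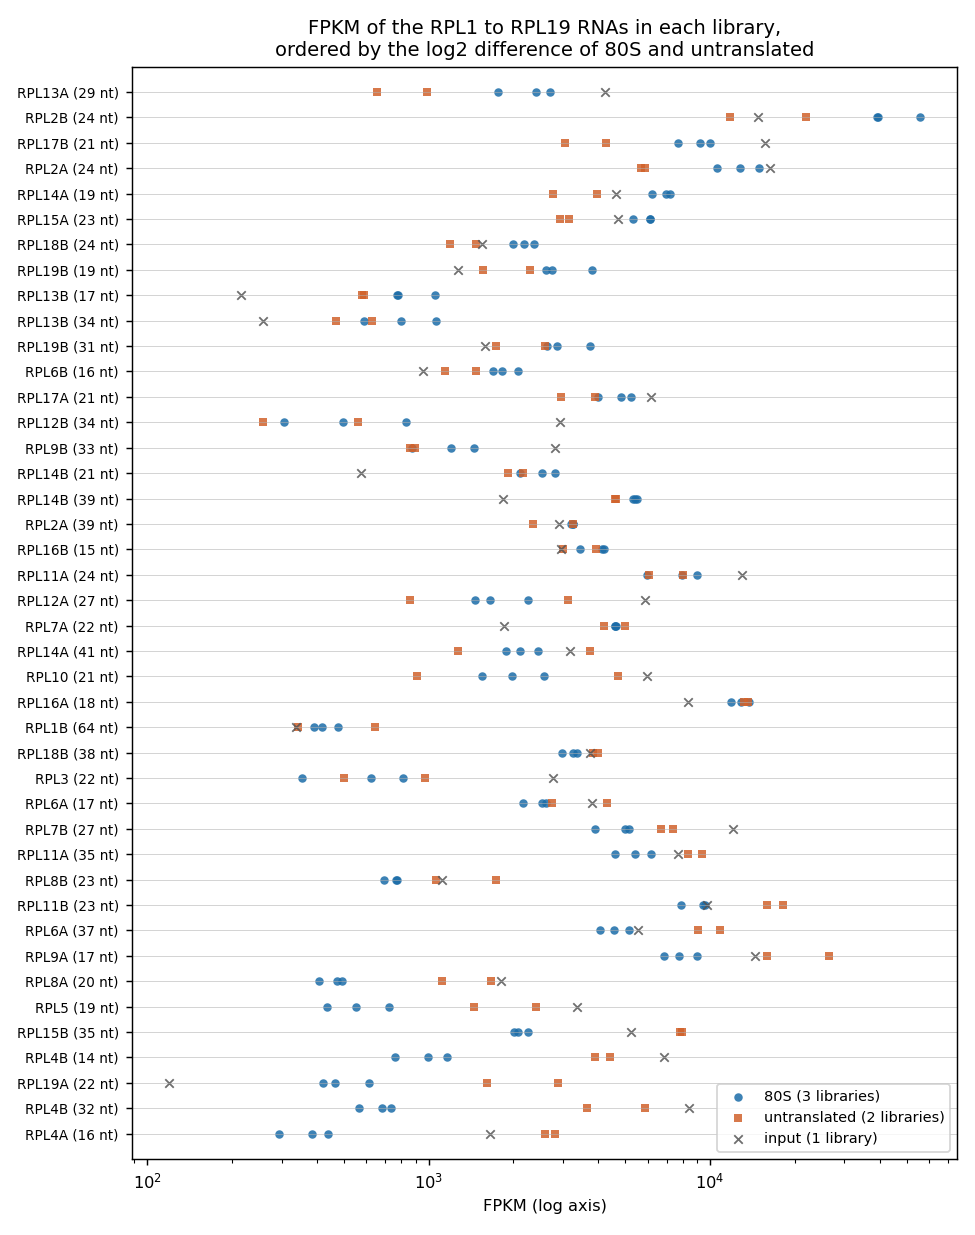
FPKM (log axis) of each of 42 RNAs in the 3 80S libraries (circles), the 2 untranslated libraries (squares) and the input library (crosses), ordered by the log2 difference of 80S and untranslated. The groups are apart at the top and the bottom, from RPL13A at 1.49 to RPL4A at -2.87, and intermixed in the middle.

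RPL4 and RPL17 have extensions that line the tunnel through which the growing chain leaves. All 3 RPL4 RNAs were lower in 80S, and they held 3 of the 4 lowest places among the members. The RPL4A RNA (16 nt leader) stood at 383, 293 and 440.1 FPKM in 80S replicates 1, 2 and 3, at 2803 and 2591 in untranslated replicates 1 and 2, and at 1653 in the input. Every 80S library lay below every other library. It was 7.33-fold lower in 80S than in untranslated RNA (log2 -2.87, SE 0.24, limma, adjusted p = 2.82e-05). For RPL4B with 32 nt of leader the values were 684, 566 and 734 FPKM in 80S, 5885 and 3661 in untranslated RNA and 8446 in the input. Its groups did not overlap and stood 7.05-fold apart (log2 -2.82, SE 0.25, limma, adjusted p = 3.51e-05). For RPL4B with 14 nt of leader they were 993, 757 and 1160.4 in 80S, 3903 and 4402 in untranslated RNA and 6883 in the input. It was 4.34-fold lower in 80S (log2 -2.12, SE 0.23, limma, adjusted p = 8.39e-05).

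The RPL17 RNAs lay on the other side. The RPL17B RNA (21 nt) stood at 10000.0, 7675 and 9192 FPKM in 80S, at 4273 and 3045 in untranslated RNA and at 15613 in the input. It was 2.47-fold higher in 80S than in untranslated RNA, and below the input in both fractions (log2 1.30, SE 0.21, limma, adjusted p = 6.69e-04 for 80S minus untranslated). The RPL17A RNA (21 nt) stood at 4815, 3996 and 5235 in 80S and at 2958 and 3911 in untranslated RNA, without overlap, but the difference of 0.45 did not pass the test (SE 0.20, limma, adjusted p = 0.0777).

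RPL2, RPL3 and RPL10 reach towards the peptidyl transferase centre, and RPL10 is one of the last proteins to join the subunit. Here the RPL2 RNAs with 24 nt leaders were higher in 80S, while RPL3 and RPL10 did not pass. The RPL2B RNA was the most abundant member in 80S, at 39335, 55650 and 39131 FPKM, with 11785 and 21838 in untranslated RNA and 14791 in the input. The lowest 80S value lay above the highest of the others, and 80S was 2.75-fold above untranslated RNA (log2 1.46, SE 0.28, limma, adjusted p = 0.00174). For RPL2A with 24 nt of leader the values were 14856, 10620 and 12801 in 80S, 5664 and 5861 in untranslated RNA and 16376 in the input. It was 2.19-fold higher in 80S than in untranslated RNA (log2 1.13, SE 0.18, limma, adjusted p = 7.50e-04).

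RPL3 and RPL10 have no second copy. The RPL3 RNA (22 nt) stood at 807, 354 and 624 FPKM in 80S, 968 and 499 in untranslated RNA and 2772 in the input. The fractions overlapped (log2 -0.30, SE 0.41, limma, adjusted p = 0.520), and both lay below the input. The RPL10 RNA (21 nt) stood at 1979, 1542 and 2564 in 80S and at 4692 and 907 in untranslated RNA. All 3 80S values lay between the untranslated replicates, which differed 5.17-fold. The log2 difference of -0.06 (SE 0.59, limma, adjusted p = 0.937) became -1.24 without untranslated replicate 2 (limma, adjusted p = 0.001146) and 1.13 without replicate 1 (limma, adjusted p = 0.002613), past the threshold in opposite directions. A direction for RPL10 therefore cannot be given.

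RPL5 and RPL11 join the ribosome together with the smallest of the ribosomal RNAs. Of their 4 RNAs, 3 were lower in 80S. The RPL5 RNA (19 nt) stood at 722, 435 and 553 FPKM in 80S, 2413 and 1448 in untranslated RNA and 3376 in the input. The groups were apart, 3.34-fold (log2 -1.74, SE 0.30, limma, adjusted p = 0.00110). The RPL11B RNA (23 nt) stood at 9414, 9604 and 7870 in 80S, 15873 and 18126 in untranslated RNA and 9740 in the input. Its 80S values lay just below the input and its untranslated values above it (log2 -0.93, SE 0.17, limma, adjusted p = 0.00138 for 80S minus untranslated). Of the RPL11A RNAs, the one with the 35 nt leader was lower (log2 -0.72, SE 0.19, limma, adjusted p = 0.00795), and that with the 24 nt leader stood at 0.12 (SE 0.22, limma, adjusted p = 0.659).

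RPL1 and RPL12 belong to the 2 mobile stalks of the subunit, where they lie beside the path of the transfer RNAs and of the elongation factors. No RNA of these genes passed. The RPL1B RNA, which had the longest leader at 64 nt, stood at 476, 418 and 392 FPKM in 80S and 344 and 642 in untranslated RNA, all above the input of 337. Its value was log2 -0.14 (SE 0.31, limma, adjusted p = 0.705). The RPL12A RNA (27 nt) stood at 1458, 1650 and 2245 in 80S and at 3120 and 858 in untranslated RNA (log2 0.10, SE 0.48, limma, adjusted p = 0.858). The 80S values lay between the untranslated replicates. Without untranslated replicate 1 the difference was 1.03 (limma, adjusted p = 0.003899), and without replicate 2 it was -0.83 (limma, adjusted p = 0.0124), so the direction depends on which library is used. The RPL12B RNA (34 nt) stood at 832, 306 and 495 in 80S, 559 and 257 in untranslated RNA and 2918 in the input (log2 0.40, SE 0.46, limma, adjusted p = 0.457).

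Of the other proteins of the subunit, RPL13A had the RNA with the highest ratio. The RPL13A RNA (29 nt) stood at 2696, 1765 and 2408 FPKM in 80S, 982 and 655 in untranslated RNA and 4241 in the input. The fractions were apart, 2.81-fold, the largest excess in 80S of the 43 (log2 1.49, SE 0.27, limma, adjusted p = 0.00124). For RPL14A with 19 nt of leader the values were 6962, 6227 and 7206 in 80S, 3978 and 2759 in untranslated RNA and 4615 in the input. It was 2.05-fold higher in 80S (log2 1.03, SE 0.20, limma, adjusted p = 0.00209). RPL18B (24 nt) and RPL19B (19 nt) were also higher, at 0.72 (SE 0.20, limma, adjusted p = 0.0127) and 0.67 (SE 0.25, limma, adjusted p = 0.0426). The RPL19B call passed in 1 of 5 fits that each left out 1 library, and its value lay between 0.39 and 0.95.

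RPL19 makes a bridge to the small subunit. The RPL19A RNA (22 nt) stood at 463, 612 and 421 FPKM in 80S and 1615 and 2869 in untranslated RNA, with 119.6 in the input. Its fractions were apart, 4.37-fold lower in 80S (log2 -2.13, SE 0.31, limma, adjusted p = 4.08e-04). In the RPL15B RNA (35 nt) replicates lay close together, at 2261, 2076 and 2007 in 80S, 7926 and 7817 in untranslated RNA and 5232 in the input. RPL15 lies deep among the ribosomal RNA of the subunit. 80S was 3.73-fold lower than untranslated RNA (log2 -1.90, SE 0.17, limma, adjusted p = 3.36e-05). The RPL15A RNA (23 nt) had the opposite direction, at 6138, 6096 and 5320 in 80S, 3142 and 2932 in untranslated RNA and 4715 in the input. 80S was 1.92-fold higher (log2 0.94, SE 0.17, limma, adjusted p = 0.00127).

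RPL8A, RPL9A and RPL6A (37 nt) also lay on the untranslated side. The RPL8A RNA (20 nt) stood at 470.3, 493 and 407 FPKM in 80S, 1116 and 1659 in untranslated RNA and 1802 in the input (log2 -1.58, SE 0.25, limma, adjusted p = 6.47e-04). The RPL9A RNA (17 nt) was the most abundant member of the untranslated fraction in replicate 1, at 26454, with 15919 in replicate 2. It stood at 7724, 6878 and 8947 in 80S and 14471 in the input (log2 -1.39, SE 0.24, limma, adjusted p = 9.46e-04). The RPL6A RNA with the 37 nt leader was 2.17-fold lower (log2 -1.11, SE 0.18, limma, adjusted p = 7.82e-04). RPL8B (23 nt) and RPL7B (27 nt) were lower by less, at -0.86 and -0.59. For RPL8B the limma call was lost in 2 of 5 fits without 1 library, and for RPL7B in 1 of 5. Of the members that did not pass, those not yet named lay between -0.50 (RPL6A, 17 nt) and 0.55 (RPL13B, 17 nt and 34 nt), among them RPL6B, RPL7A, RPL9B, the longer RNAs of RPL2A, RPL14A, RPL18B and RPL19B, both RNAs of RPL14B, and RPL16A and RPL16B.

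**Figure D2:**
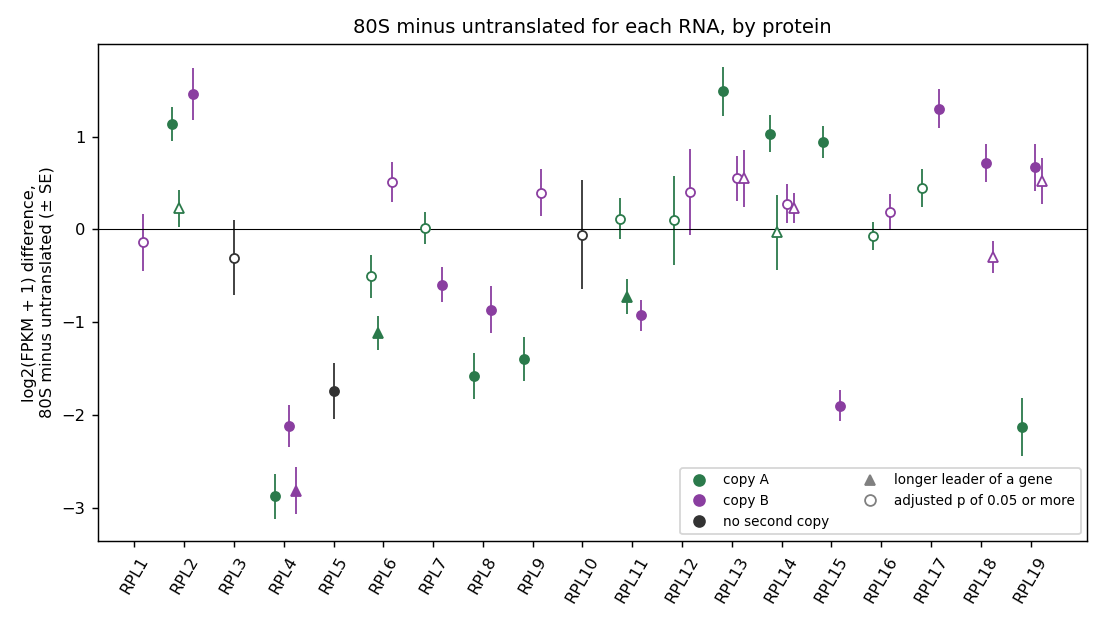
The log2(FPKM + 1) difference of 80S minus untranslated with its SE for each RNA (3 against 2 libraries), by protein from RPL1 to RPL19. Copies A and B are coloured, triangles mark the longer leader of a gene, and filled points passed an adjusted p under 0.05 in limma. RPL4 lies low for all 3 RNAs, RPL15 and RPL19 are split between copies, and RPL2 lies high for the 24 nt leaders of both copies.

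The A and B copies of a protein were compared next. Their coding sequences in the reference were 86.7% to 98.9% identical at the nucleotide level, with a median of 94.0% over 15 pairs, while the leaders compared were 39.4% to 72.2% identical. The RNAs with the nearest leader lengths were taken, the difference A minus B was formed within each library, and limma was fitted to the 57 such pairs of the pool. Of the 15 pairs here, 8 differed in their 80S to untranslated ratio at an adjusted p under 0.05, with A higher in 2 and B higher in 6. Over all 57 pairs, 61.4% differed, 17.5% with A higher and 43.9% with B higher, so that the members' 53.3% and their direction are near the background. Against the input, 8 of 15 pairs differed in 80S (A higher in 2, B higher in 6) and 9 in untranslated RNA (5 and 4), where all pairs gave 38.6% (10.5% and 28.1%) and 49.1% (31.6% and 17.5%). The coding sequences compared are those of the reference, and how much of them the RNAs carried is not given here. The leaders themselves were not near-identical, and the longest stretch shared by a pair was 3 to 10 nt. How reads shared by the RNAs of both copies, if any, were assigned is not stated in any source used.

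The largest difference between copies was that of RPL15, where the ratio of A was 7.17-fold that of B (log2 2.84, SE 0.14, limma, adjusted p = 8.03e-05). The nearest lengths were still far apart in RPL15 (23 nt and 35 nt) and in RPL9 (17 nt and 33 nt). Copy and leader length cannot be told apart in those pairs. In RPL19 the ratio of B was 6.95-fold that of A (log2 A minus B -2.80, SE 0.19, limma, adjusted p = 2.70e-04). The RPL15 and RPL19 pairs passed in each of the 5 fits without 1 library. A further 5 calls were smaller or more variable: RPL9 at -1.79, RPL11 at 1.04, RPL6 at -1.02, RPL4 at -0.76 and RPL8 at -0.71. None of them passed in more than 2 of those 5 fits, with an adjusted p of up to 0.195 in limma for RPL6. With the longest leader of each copy in place of the nearest lengths, RPL4 stood at -0.056 (limma, adjusted p = 0.8542) and RPL11 at 0.20 (limma, adjusted p = 0.5237), so both calls were lost, and RPL6 stood at -1.63 (limma, adjusted p = 0.002262). In RPL4 both copies lay on the untranslated side. In RPL15, the copies passed in opposite directions. Over the 5 fits without 1 library, RPL15A ran from 0.89 to 1.01 and RPL15B from -1.95 to -1.86. The RPL19 copies also passed in opposite directions, but the B side was near the threshold. RPL19B (19 nt) stood at 0.67 (limma, adjusted p = 0.0426). Its call was lost when any 80S library was left out, and after median-ratio rescaling. RPL19B (31 nt) stood at 0.52 and did not pass (limma, adjusted p = 0.09085).

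With the nearest leader lengths, the smallest differences were those of RPL16 (-0.26, SE 0.19, limma, adjusted p = 0.281), RPL12 (-0.30, SE 0.55, limma, adjusted p = 0.661) and RPL2 (-0.32, SE 0.40, limma, adjusted p = 0.540). With the 39 nt leader of RPL2A in place of the 24 nt one, RPL2 stood at -1.23 and passed (limma, adjusted p = 0.007008). The RPL16 RNAs had nearly the same level in both fractions. RPL16A (18 nt) stood at 12847, 13729 and 11853 FPKM in 80S and 13170.0 and 13653 in untranslated RNA, and RPL16B (15 nt) at 4141, 4213 and 3454 against 3011 and 3929. Missing the threshold does not show that copies acted alike. With the nearest lengths, the SE leaves differences of either sign for RPL16, RPL12 and RPL2. The leaders of the split pair RPL19 and of the pair RPL2 are given with the longest stretch that both copies share in capitals.
RPL19A (22 nt): gATTAagaactccaaagcaaaa
RPL19B (19 nt): accaataaATTAgaggaaa
RPL2A (24 nt): AAGAAACCAttagatcaataagca
RPL2B (24 nt): AAGAAACCAcaaagttattgaaca
The longest shared stretch was 4 nt in RPL19 and 9 nt in RPL2, where it is the 5′ end of both leaders. The leader of RPL4A begins with AAGAA as those of RPL2A and RPL2B do, and its RNA lay furthest on the untranslated side.

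For 9 genes the pool held a shorter and a longer leader, which share their 3′ part. In limma, fitted to all 2008 genes with several RNAs, the longer leader had the lower 80S to untranslated ratio in 4 genes and the higher in none. Over those 2008 genes 33.6% were lower and 34.9% higher, 68.5% in all. The value was below 0 in 9 of 9 genes and in 49.8% of the 2008, but for 3 of the 9 it was close to 0. The members were few, and no test compared them with the rest. Against the input the longer leader was lower in 80S for 2 genes and higher in none, and in untranslated RNA higher for 2 and lower in none. All genes gave 27.8% higher and 21.6% lower (49.4%) in 80S, and 29.1% and 22.6% (51.7%) in untranslated RNA.

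The stretches that the longer leaders add at the 5′ end are shown for the 4 genes that passed and for RPL4B, the next in size.
RPL14A (22 nt added): gtcttagtgaacaaagagagtc
RPL18B (14 nt added): agaaagaaaaaatc
RPL2A (15 nt added): atttctgagcaaact
RPL11A (11 nt added): gaaggtgaacc
RPL4B (18 nt added): atagtcatttactagggt
The largest difference was that of RPL14A, at -1.06 between the 41 nt and the 19 nt leader (SE 0.31, limma, adjusted p = 0.0183). The longer RNA stood at 2115, 1889 and 2440 FPKM in 80S and at 3748 and 1269 in untranslated RNA. Its untranslated replicates lay on both sides of the 80S values, and the difference between the leaders was -0.55 without untranslated replicate 1 and -1.58 without replicate 2. That longer RNA by itself gave 0.75 (limma, adjusted p = 0.01317) and -0.81 (limma, adjusted p = 0.007193) in these fits, past the threshold in opposite directions. RPL18B gave -1.01 between 38 nt and 24 nt (SE 0.20, limma, adjusted p = 0.00301) and passed in each of the 5 fits without 1 library. Its longer RNA stood at 3362, 3253 and 2972 in 80S and 3851 and 3982 in untranslated RNA, and its shorter RNA at 2176, 2376 and 1992 against 1188 and 1475. The longer leader was the more abundant in all libraries, by more in untranslated RNA than in 80S.

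RPL2A gave -0.91 between 39 nt and 24 nt (SE 0.25, limma, adjusted p = 0.0136). The RNA with the longer leader stood at 3258, 3263 and 3198 FPKM in 80S and 2348 and 3263 in untranslated RNA, and did not share the excess in 80S of the 24 nt leader. RPL11A gave -0.84 between 35 nt and 24 nt (SE 0.25, limma, adjusted p = 0.0186). The call of RPL2A was lost in 1 of the 5 fits without 1 library, that of RPL11A in 2 and that of RPL14A in 3. RPL4B (-0.70, SE 0.28, limma, adjusted p = 0.0568) and RPL6A (-0.61, SE 0.30, limma, adjusted p = 0.105) did not pass. RPL19B, RPL14B and RPL13B stood at -0.15, -0.05 and less than 0.01 below 0, with adjusted p of 0.494, 0.863 and 0.992 in limma. Reads that the RNAs of 1 gene share may have been assigned to either, which the sources used here do not state.

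**Figure D3:**
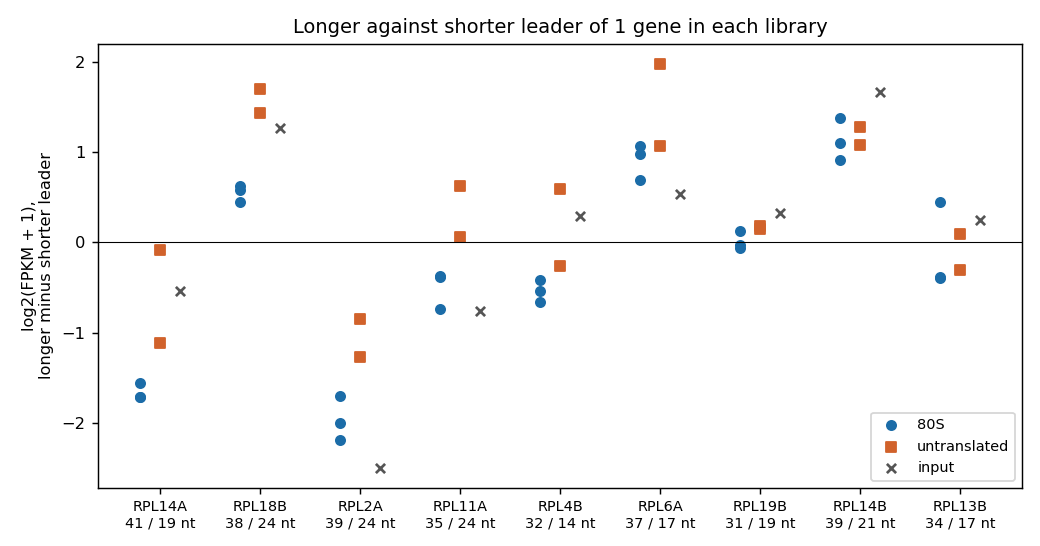
The log2(FPKM + 1) of the longer minus that of the shorter leader of each of 9 genes, in each library (circles 80S, squares untranslated, crosses input). For RPL14A, RPL18B, RPL2A, RPL11A, RPL4B and RPL6A every 80S point lies below both untranslated points, and for RPL13B, RPL14B and RPL19B the fractions lie close together or overlap.

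Against the input, which asks how abundant an RNA was in a fraction relative to the starting pool, the members spread more widely. Set against the input in limma, 80S was above it for 11 of 43 members and below it for 16, against 20.1% and 33.2% of the pool (53.3% in all). In untranslated RNA 8 were higher and 11 lower, against 17.4% and 34.4% (51.8% in all). After rescaling by median ratios the counts became 13 and 11 in 80S, and 13 and 6 in untranslated RNA, so the excess of lower RNAs depended on the scaling. The pool moved too: its median went from -0.25 to -0.01 in 80S and from -0.36 to 0.02 in untranslated RNA. Its RNAs past the threshold were not counted after rescaling, so the rescaled member counts have no background beside them. Both comparisons share the single input library, which has no replicate and was assumed to vary like the fractions.

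The 4 largest rises of 80S over the input were those of RPL14B (21 nt, log2 2.10, limma, adjusted p = 6.15e-04), RPL19A (22 nt, 2.03, limma, adjusted p = 0.00336), RPL13B (17 nt, 1.99, limma, adjusted p = 0.00131) and RPL13B (34 nt, 1.62, limma, adjusted p = 0.00810). These RNAs had low input values. RPL14B (21 nt) stood at 2814, 2529 and 2107 FPKM in 80S, 1907 and 2167 in untranslated RNA and 576 in the input. RPL13B (17 nt) stood at 1055, 776 and 770.3 in 80S, 579 and 589 in untranslated RNA and 215 in the input. Both fractions lay above the input for each. The RPL19A input of 119.6 FPKM was 5 times the lowest value of that library, and the RPL13B (17 nt) input was 9 times it. The number of fragments behind them is unknown. RPL19A was 17.9-fold higher in untranslated RNA than in the input (log2 4.16, SE 0.42, limma, adjusted p = 4.27e-04), the largest such rise of the 43.

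The 4 largest falls of 80S against the input were those of RPL4B (32 nt, log2 -3.68, 12.8-fold, limma, adjusted p = 2.29e-04), RPL4B (14 nt, -2.85, limma, adjusted p = 2.95e-04), RPL5 (-2.59, limma, adjusted p = 0.00109) and RPL12B (-2.54, limma, adjusted p = 0.00743). For RPL4B and RPL5 the untranslated RNA was also below the input, by 0.73 to 0.86 on the log2 scale, but did not pass. For RPL12B it fell by 2.94 (SE 0.62, limma, adjusted p = 0.00567), so that both fractions stood well below the input. RPL3 showed the same, at -2.30 in 80S (limma, adjusted p = 0.00641) and -1.99 in untranslated RNA (limma, adjusted p = 0.0162). RPL13A fell in untranslated RNA by 2.40 (limma, adjusted p = 0.00140) and RPL17B by 2.11 (limma, adjusted p = 8.90e-04), each by more than in 80S, at -0.91 and -0.81. RPL7A was above the input in both fractions, by 1.31 in 80S (limma, adjusted p = 0.00169) and 1.30 in untranslated RNA (limma, adjusted p = 0.002607), and its fractions differed by 0.01.

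**Figure D4:**
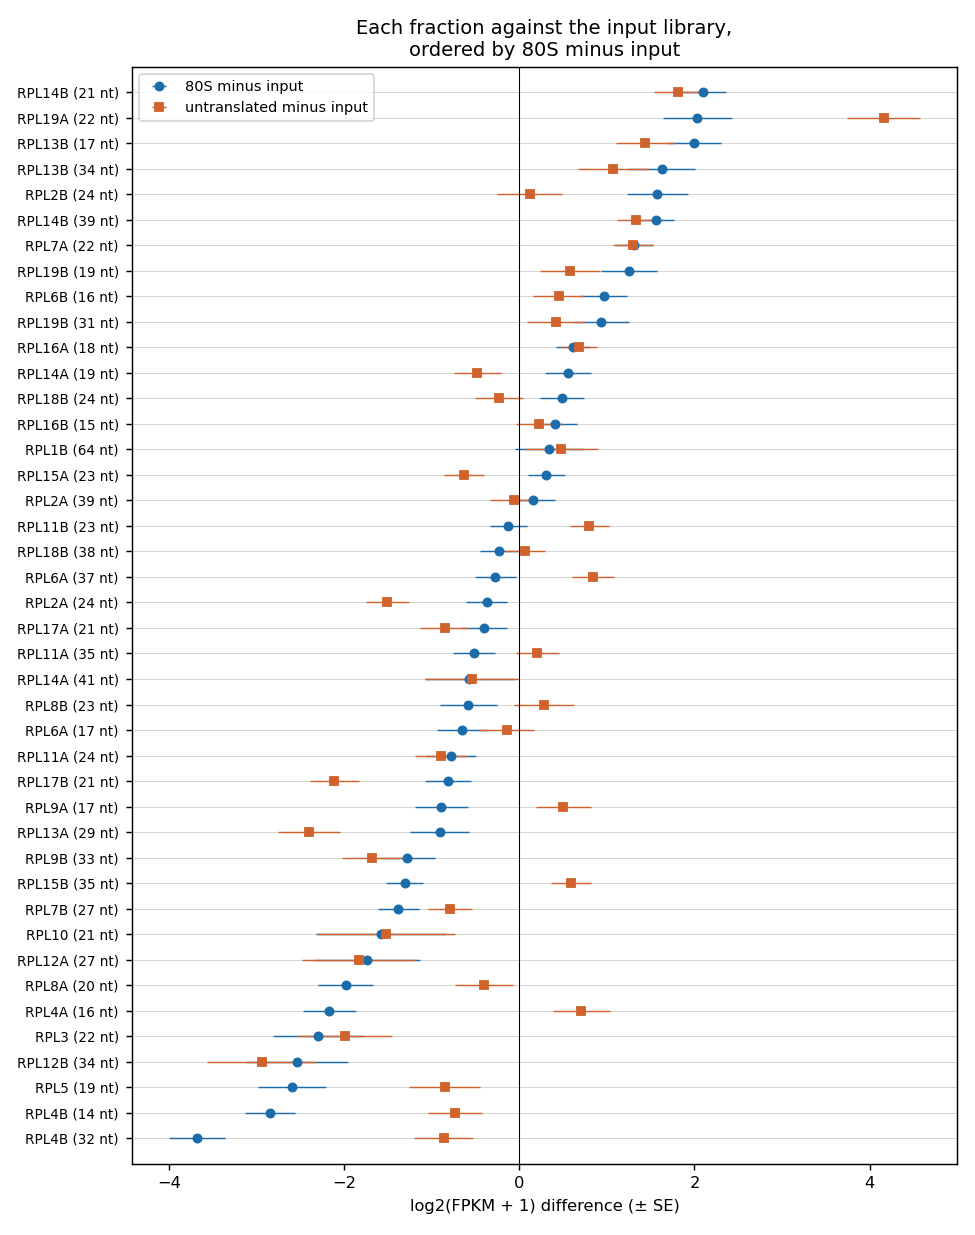
The log2(FPKM + 1) difference of 80S (circles) and of untranslated RNA (squares) from the single input library, with SE from limma, for 42 RNAs ordered by 80S minus input. The 80S points run from 2.10 for RPL14B (21 nt) to -3.68 for RPL4B (32 nt), and RPL19A has its untranslated point furthest to the right, at 4.16.

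The other proteins of the ribosome, taken by symbol, give the setting. Of 51 RNAs of RPL20 to RPL43, 26 were higher in 80S than in untranslated RNA and 8 lower in limma, and their median log2 difference was 0.76. Of 83 RNAs of the small subunit, 34 were higher and 21 lower, with a median of 0.38. Of 5 RNAs of the acidic stalk proteins and their base, 2 were higher and 2 lower. The median of RPL1 to RPL19 (0.01) was lower than the medians of RPL20 to RPL43 and of the small subunit, and no test compared the lists. Replicates agreed about as well for the members as for the pool: the median SD on the log2 scale was 0.20 in 80S and 0.30 in untranslated RNA for members, and 0.18 and 0.26 for all RNAs. The members held 0.732% to 0.778% of the summed FPKM of a library, and each library summed to 24800000 to 28500000.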

How the data were processed

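The measurements are FPKM values, as deposited by the authors, 1 for each RNA and library. The submitters' processing notes name cutadapt and STAR and give no version. No source used here gives the program behind FPKM, the build or how shared reads were treated. Read counts and depth are unknown: within 0.001 of a step, 2.23% of input values were multiples of the lowest, 23.9, so no counting intervals are given.

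Values were transformed to log2(FPKM + 1), which understates changes of low RNAs. limma 3.58.1 (R 4.3.3) was fitted with a trend and 1 mean per group to all 6 libraries. The fit of RNAs had 3 residual and 5.15 prior degrees of freedom. The fits of paralogue and leader pairs each estimated their own prior. In those fits the trend followed the mean difference of a pair and not its abundance. The filter (mean FPKM 10 or more, input not 0) removed 0 RNAs. On simulated data with 6962 RNAs, for 80S minus untranslated, 28 of 100 changes of 1 and 90 of 100 changes of 2 on the log2 scale were recovered. No other RNA was changed there, whereas 70.4% of the pool passed in the data, so the adjustment was stricter in the simulation. The recovered shares therefore do not give the recovery in the data. Folding used ViennaRNA 2.7.2, and alignments Biopython 1.88. Symbols came from R64, which named 6860 RNAs.

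Nothing in the labels says whether replicates were separate reactions, so p-values cover only how these libraries vary, possibly for technical reasons. The members, lists and tests were chosen with earlier results of these data known. Named RNAs were the 8 largest rises and falls with separate groups, 4 and 4 against the input, the 6 largest and 3 smallest paralogue differences, all genes with 2 RNAs, and RPL3, RPL5 and RPL10. The others are given for completeness, except 1 gene that is counted but not reported by name or drawn here. Alternatives were other pseudocounts and filters, rescaling, no trend, a replicate block, no input, other paralogue RNAs, and leaving out each library.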

Additional observations from a re-analysis of the deposited data

How the results depend on the processing

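Of the 22 calls for 80S against untranslated RNA, 19 were kept in each of the 5 fits without 1 library. Those fits gave 7 to 11 higher and 13 to 17 lower members, 8 to 12 and 11 to 19 for 80S against the input, and 7 to 11 and 6 to 15 for untranslated RNA against the input. They gave 3 to 7 paralogue pairs and 2 to 4 leader pairs past the threshold, and a member median of -0.085 to 0.17. Leaving out 80S replicate 1 gave 6 lower members for untranslated RNA against the input (11 with all libraries), 3 paralogue pairs (8) and 2 leader pairs (4), and leaving out 80S replicate 3 gave 3 paralogue pairs. Median-ratio rescaling moved the median to -0.13, and for untranslated RNA against the input gave 13 higher and 6 lower.

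With a replicate block on the shared numbers of the fractions, 11 members were higher and 15 lower, and 7 paralogue and 3 leader pairs passed. The numbers are not stated to pair libraries. Over members, the difference of untranslated replicates 1 and 2 had r = 0.51 with that of 80S replicates 1 and 2, r = 0.70 with that of 80S replicates 3 and 2, and r = -0.30 with that of 80S replicates 1 and 3. Over all RNAs these were 0.37, 0.60 and -0.29, so the shared numbers did not correlate best. The main fit took all libraries as independent, so its SE and p-values leave out any link between libraries of the 2 fractions.

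The differences that changed sign had not passed with all libraries, and the cause was not tested. Rescaling gave -0.032 for RPL11A (24 nt) and -0.046 for RPL12A, and the block -0.013 and -0.077, with 0.13 for the leaders of RPL13B. With the longest leader of each copy, 6 paralogue pairs passed (8 with the nearest lengths): RPL14 gave -0.26, RPL2 passed at -1.23, and RPL4 (-0.056) and RPL11 (0.20) no longer passed. Over the fits without 1 library, RPL10 ran from -1.24 to 1.13, RPL12A from -0.83 to 1.03, RPL12B from -0.16 to 0.96, RPL14A (41 nt) from -0.81 to 0.75, RPL3 from -0.78 to 0.17, RPL11A (24 nt) from -0.085 to 0.32, RPL1B from -0.59 to 0.31, RPL7A from -0.11 to 0.13, RPL2A (39 nt) from -0.011 to 0.46 and RPL16B from -0.0031 to 0.38. The copies of RPL12 ran from -0.67 to 0.20 and those of RPL2 from -0.75 to 0.095, and the leaders of RPL13B from -0.28 to 0.20 and of RPL14B from -0.17 to 0.063. In RPL10, RPL12A and RPL14A (41 nt) both ends passed the threshold, each resting on 1 untranslated library, which was assumed to vary like the other groups.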

Other observations

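Some stretches recurred among these leaders, which were noticed after the values were seen and are given as a description. The sequence AAGAA stood at the 5′ end of 5 of 43 leaders (11.6%), on the strand of the RNA, against 163 of 6855 (2.38%) in the pool. Over those 163 RNAs the median log2 difference of 80S minus untranslated was 0.85, with 92 higher and 27 lower in limma. Among the members it ran from -2.87 for RPL4A to 1.46 for RPL2B, with 2 higher and 1 lower. The sequence CGAA stood directly before the start codon in 5 members (11.6%), namely RPL4A, RPL8A, RPL6B and both RNAs of RPL6A, against 33 in the pool (0.481%). Of the 5, 3 were lower in 80S and none was higher, and of the 33 in the pool 12 were lower and 11 higher. The 2 RNAs of RPL6A share this end by construction, and RPL6B shares its last 7 nt with the shorter of them. Of the leaders that begin with AAGAA, those of RPL2A and RPL2B share their first 9 nt. The members counted for each sequence are therefore not all independent.

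The untranslated replicates differed by more than 2-fold for a few members: 5.17-fold for RPL10, 3.64-fold for RPL12A, 2.95-fold for RPL14A (41 nt) and 2.17-fold for RPL12B. For RPL10 the log2 difference of 80S minus untranslated was -1.24 between libraries numbered 1 and 0.76 between those numbered 2, for RPL12A -1.10 and 0.94, and for RPL14A (41 nt) -0.83 and 0.57.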
